A study of Mus musculus with 48 samples.

Results

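The genes described here are 10 genes of the hormone-secreting (enteroendocrine) cells of the gut epithelium. They are Gcg, Cck, Gip, Sct, Pyy, Nts, Sst, Ghrl, Tph1 and Chga, chosen by symbol from a fixed list, and they are 10 of the 54532 genes in the deposited table. All 10 had enough counts to be tested, as did 21986 genes in all. The study took whole-thickness intestine from C57BL/6J mice of both sexes and catalogued its RNA over the ages of susceptibility to necrotizing enterocolitis, in which inflamed bowel of newborns dies back. Duodenum was cut just past the stomach outlet and ileum just before the caecum, on postnatal day 0, 2, 4, 6 or 8 or in week 2, 3 or 4, and each region and age had 3 samples, 48 in all. Every group had the same strain, no treatment and no genetic change. Pups stayed with the dam until weaning at the end of the third week and then ate chow, so diet changed with age in all groups. Housing is labelled as standard germ-free, and which microbial status that means could not be settled. Usually a litter gave several ages. The labels do not say that the samples of a group were separate animals, so the p-values measure the spread between these samples. They also do not say whether same-numbered duodenum and ileum samples came from 1 animal.

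Enteroendocrine cells are scattered singly among the absorptive cells of the epithelium. They sense nutrients, bile acids and other contents of the lumen and release peptide hormones or serotonin toward blood, nerves and neighbouring cells. Different hormones prevail at different places along the gut: cholecystokinin and the glucose-dependent insulinotropic peptide are textbook products of the upper small intestine, while the glucagon-like peptides, peptide YY and neurotensin are textbook products of the lower. The cells arise from Neurog3-expressing progenitors and are renewed with the rest of the epithelium.

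Promoters are shown for 4 members, because Nts and Pyy were the members with the largest excess in the ileum and Cck and Gip were above the ileum in every duodenal sample at every age. Each line holds 250 bases before to 50 bases after the RefSeq start on GRCm38.p6, 5′ to 3′ on the gene's strand. Capitals mark 3 motifs on either strand. The core of the cAMP response element is TGACG, the motif of the Gata4 family of factors is AGATAA, and an E-box that basic helix-loop-helix factors bind is CAGCTG. The Nts promoter is at chr10:102490369-102490668 on the minus strand, the Pyy promoter at chr11:102107783-102108082 on the minus strand, the Cck promoter at chr9:121495645-121495944 on the minus strand and the Gip promoter at chr11:96024295-96024594 on the plus strand.
Nts: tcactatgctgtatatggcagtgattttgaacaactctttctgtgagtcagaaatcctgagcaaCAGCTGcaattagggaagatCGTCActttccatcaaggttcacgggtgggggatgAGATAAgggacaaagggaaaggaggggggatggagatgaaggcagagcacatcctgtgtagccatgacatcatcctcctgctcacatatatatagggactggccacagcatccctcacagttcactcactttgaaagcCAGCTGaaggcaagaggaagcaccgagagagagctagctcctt
Pyy: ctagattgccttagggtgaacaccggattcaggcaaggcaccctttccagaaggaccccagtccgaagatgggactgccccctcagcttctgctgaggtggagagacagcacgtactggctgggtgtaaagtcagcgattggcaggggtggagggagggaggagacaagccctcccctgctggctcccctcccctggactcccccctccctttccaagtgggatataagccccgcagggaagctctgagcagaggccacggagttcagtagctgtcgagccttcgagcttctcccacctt
Cck: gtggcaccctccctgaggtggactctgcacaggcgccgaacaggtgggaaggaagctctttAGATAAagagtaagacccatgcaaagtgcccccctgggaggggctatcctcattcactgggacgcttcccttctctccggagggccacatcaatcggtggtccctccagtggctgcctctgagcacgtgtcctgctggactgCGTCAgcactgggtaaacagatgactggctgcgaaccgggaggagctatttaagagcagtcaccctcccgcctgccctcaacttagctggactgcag
Gip: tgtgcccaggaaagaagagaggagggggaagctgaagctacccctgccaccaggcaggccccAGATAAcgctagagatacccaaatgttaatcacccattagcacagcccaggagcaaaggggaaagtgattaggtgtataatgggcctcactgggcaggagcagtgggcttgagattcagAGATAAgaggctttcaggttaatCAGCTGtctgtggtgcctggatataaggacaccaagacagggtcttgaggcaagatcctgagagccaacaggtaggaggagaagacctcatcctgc

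Nts holds 1 TGACG, 1 AGATAA and 2 CAGCTG, Cck 1 TGACG and 1 AGATAA, and Gip 2 AGATAA and 1 CAGCTG. None of these letters is in the Pyy window, which is the earlier of the 2 RefSeq entries for that gene. No marked matches overlap. Among 32544 RefSeq promoter windows of the same length, 20.9% hold TGACG, 11.2% hold AGATAA and 16.4% hold CAGCTG. All 10 members matched the table, with 15 entries. The full element TGACGTCA, which contains TGACG and is in 1.8% of windows, is among the members only in that of Sst. TATAAA, in 13.6% of windows, is in those of Gcg, Sct and Chga. The RefSeq start of Nts lies 68 bases from the nearest GENCODE start, and those of Pyy, Cck and Gip lie on one. A match describes letters in a window and says nothing of binding.

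Library totals ran from 16824021 to 65042327 counts and mitochondrial transcripts took 13.1% to 35.2% of them. The libraries labelled day 6 number 3 were left out of every test, because each resembled the other region (mean Spearman correlation across genes 0.988 and 0.98 with the day 6 samples of the other region, 0.936 and 0.935 with those of its own). Their member levels were those of the other region too, for example 11.7 CPM of Pyy in the library labelled duodenum and 3.75 CPM in the one labelled ileum. The 46 remaining libraries give 3 samples a group and 2 at day 6. CPM are counts relative to the scaled library total (per megacount), and a gene is called where the edgeR test gave an adjusted p under 0.05. Ileum week 4 number 1 also stood apart: its ileal position markers Fabp6, Slc10a2 and Fgf15 summed to 109.7 CPM, against 2000 and 2303 CPM in numbers 2 and 3. Its duodenal position markers Pdx1, Onecut2 and Gata4 summed to 104.1 CPM, against 25.9 and 38.6 CPM. Over the other samples the duodenal markers lay at 250.1 to 507.9 CPM in duodenum and 25.9 to 165.3 CPM in ileum, so the labelled regions carried their markers. Leaving it out changed 6 member calls, and the values with and without it stand beside those members.

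Averaged over the 8 ages, all 10 members were called between ileum and duodenum, beside 62.1% of all genes tested. Gcg, Sct, Pyy and Nts were higher in the ileum, and Cck, Gip, Sst, Ghrl, Tph1 and Chga were higher in the duodenum. The mean log2 difference, ileum over duodenum, was 2.55 ± 0.14 (SE, adjusted p = 5.21e-17) for Pyy and 2.11 ± 0.15 (SE, adjusted p = 3.17e-14) for Nts. On the other side it was −2.07 ± 0.13 log2 units (SE, adjusted p = 1.07e-15) for Cck, −2.02 ± 0.13 log2 units (SE, adjusted p = 8.62e-16) for Ghrl and −1.75 ± 0.15 log2 units (SE, adjusted p = 1.64e-11) for Gip. Smaller differences were those of Gcg at 1.18 ± 0.10 log2 units (SE, adjusted p = 8.47e-13), Tph1 at −1.01 ± 0.11 log2 units (SE, adjusted p = 2.75e-10) and Sst at −0.79 ± 0.13 log2 units (SE, adjusted p = 1.85e-06). The least were those of Sct at 0.43 ± 0.11 log2 units (SE, adjusted p = 0.00119) and Chga at −0.42 ± 0.08 log2 units (SE, adjusted p = 1.29e-05). In whole tissue, a lower value can come from fewer cells of a type or from less RNA in each, and these cannot be told apart. All 10 calls held in every alternative processing and without any 1 library.

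At single ages the number of members called ran from 4 to 8. At day 0 it was 4, beside 6.1% of all genes, at day 2 it was 6 beside 8.01%, at day 4 it was 8 beside 26.6% and at day 6 it was 7 beside 35.3%. At day 8 it was 8 beside 39.6%, at week 2 it was 8 beside 22.4%, at week 3 it was 7 beside 14.2% and at week 4 it was 5 beside 28.4%. Cck and Pyy were called at all 8 ages, Nts, Gip and Ghrl at 7, Gcg at 6, Tph1 at 5, Sst and Chga at 2 and Sct at 1. The samples of the regions did not overlap at any age for Cck, Gip, Pyy and Nts. The share of all genes that separate in this way was not counted, so this describes these members only.

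**Figure D1:**
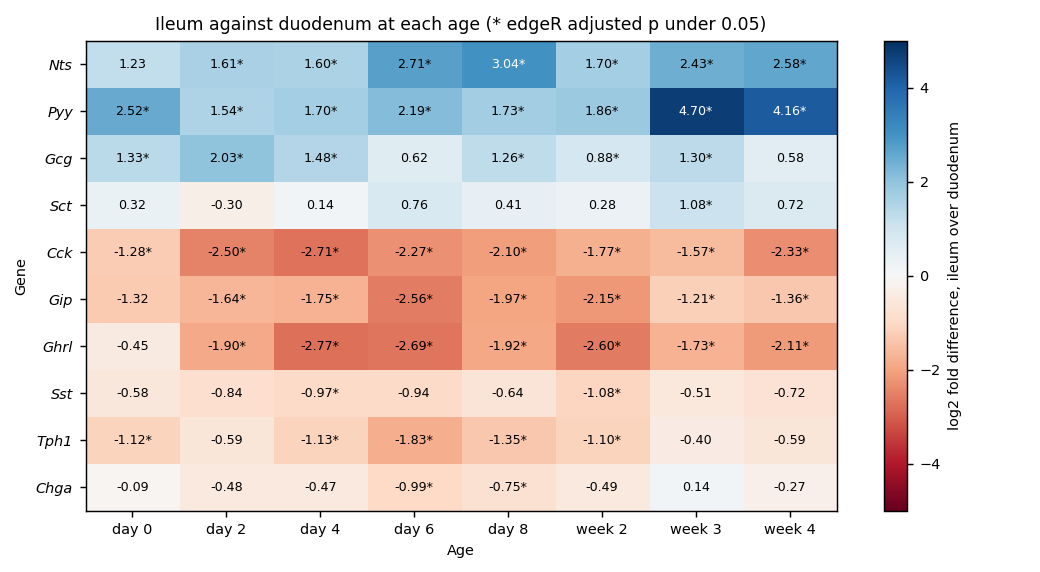
Log2 fold difference of ileum over duodenum for each of the 10 members (vertical axis) at each of the 8 ages (horizontal axis), with blue for higher in ileum, red for higher in duodenum and a star for an edgeR adjusted p under 0.05. Pyy and Nts are blue and Cck and Gip are red at every age, and the highest value is 4.70 for Pyy at week 3.

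Pyy encodes peptide YY, a hormone of distal enteroendocrine cells that slows gut transit and reduces food intake, and it lies at chr11:102106676-102107832 on the minus strand (GRCm38). In the duodenum, Pyy levels were 4.10, 2.50 and 3.52 CPM at day 0, 5.77, 3.33 and 3.53 at day 2, 4.25, 3.45 and 7.19 at day 4, 3.42 and 3.56 at day 6 and 4.79, 3.98 and 3.49 at day 8. They were 5.81, 2.75 and 3.85 CPM at week 2, 0.394, 0.14 and 0.462 at week 3 and 0.6, 1.58 and 0.707 at week 4. All duodenal samples up to week 2 lay at 2.50 CPM or above, and all 6 of week 3 and week 4 lay at 1.58 CPM or below. The week 3 values rest on raw counts of 22, 4 and 18. In the ileum, Pyy levels were 28.4, 12.1 and 18.0 CPM at day 0, 13.4, 13.4 and 9.98 at day 2, 11.1, 19.4 and 17.6 at day 4, 14.9 and 16.9 at day 6 and 12.2, 12.7 and 15.8 at day 8. Later they were 11.0, 18.2 and 15.8 CPM at week 2, 8.12, 9.60 and 9.65 at week 3 and 9.50, 10.9 and 31.9 at week 4. Ileal samples stayed within 8.12 to 31.9 CPM and were above every duodenal sample, the highest of which was 7.19 CPM. From week 2 to week 3 duodenal Pyy fell by 3.56 on the log2 scale (SE 0.46, adjusted p = 1.46e-07), and its ileal change was −0.72 ± 0.36 (SE, adjusted p = 0.151). The difference between those changes, ileum minus duodenum, was 2.84 ± 0.58 log2 units (SE, adjusted p = 0.00546) and stayed called without any 1 of the 12 libraries. From week 3 to week 4 duodenal Pyy rose by 1.47 ± 0.48 log2 units (SE, adjusted p = 0.0379). Without number 2 of week 4 the change was 0.91 log2 units with an adjusted p of 0.342, and the call was also lost without number 1 or 2 of week 3. At week 4 the gene was still lower than at day 0 in the duodenum, by a log2 change of −1.81 ± 0.41 (SE, adjusted p = 0.000524). The regional log2 difference in Pyy was between 1.54 and 2.52 at the ages up to week 2, 4.70 ± 0.47 (SE, adjusted p = 7.95e-09) at week 3 and 4.16 ± 0.43 (SE, adjusted p = 1.07e-08) at week 4.

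Nts encodes neurotensin, a peptide of distal enteroendocrine cells that slows motility and promotes fat uptake, and it lies at chr10:102481756-102490486 on the minus strand. Enteric neurons can also make it. In the duodenum, Nts levels were 62.0, 56.6 and 53.6 CPM at day 0, 55.8, 59.0 and 44.5 at day 2, 52.8, 36.0 and 90.0 at day 4, 19.4 and 25.4 at day 6 and 25.7, 22.6 and 32.8 at day 8. From then on they were 33.1, 36.6 and 39.8 CPM at week 2, 10.3, 15.3 and 15.3 at week 3 and 13.8, 57.3 and 28.9 at week 4. Every day 6 and day 8 sample was below every sample of day 0 to day 4. In the ileum, Nts levels were 144, 97.4 and 163 CPM at day 0, 166, 193 and 126 at day 2, 152, 210 and 179.6 at day 4, 138 and 154 at day 6 and 292, 144 and 230.5 at day 8. They were 97.1, 124 and 134 CPM at week 2, 65.9, 72.3 and 81.8 at week 3 and 128, 87.1 and 383 at week 4. Week 3 had the lowest mean in both regions, and its ileal samples lay below those of every other ileal group. Between day 0 and day 8, Nts fell in the duodenum by a log2 change of −1.08 ± 0.39 (SE, adjusted p = 0.0236), while its ileal change was 0.72 ± 0.38 (SE, adjusted p = 0.197). The duodenal call was lost without duodenum day 0 number 1 or duodenum day 8 number 1 or 2 (adjusted p from 0.0606 to 0.0885). The difference between these changes was 1.80 ± 0.55 log2 units (SE, adjusted p = 0.0329), a call lost without any 1 of 8 of the 12 libraries, with an adjusted p up to 0.082. From week 2 to week 3 duodenal Nts fell by a log2 change of −1.42 ± 0.40 (SE, adjusted p = 0.00874), a call lost without duodenum week 3 number 1 (adjusted p = 0.0576). The ileal change was −0.69 ± 0.38 log2 units (SE, adjusted p = 0.194). Over the same span the sum of 9 enteric neuron markers, carried mostly by Ret, went down: duodenal samples had 41.4 to 53.9 CPM at week 2 and 13.5 to 14.9 CPM at week 3, and ileal samples had 111.3 to 121.3 CPM and 16.2 to 20.4 CPM. Ret fell in both regions, and the other 8 neuron markers were not called in either, beside 18.3% (duodenum) and 26.8% (ileum) of all genes called. The sum of 10 epithelial markers was higher at week 3, with 4786 to 5276 CPM and then 6574 to 7579 CPM for duodenum, and 4579 to 4991 CPM and then 9306 to 12340 CPM for ileum. Not all 10 rose, beside the same shares of all genes called. In the duodenum 3 rose (Vil1, Krt8 and Krt20), Elf3 fell and 6 were not called. In the ileum 4 rose (Vil1, Krt8, Krt20 and Cdx1) and 6 were not called. The median log2 changes of the 10 were −0.115 and 0.38. The part of these markers in the Nts changes was not tested. From week 3 to week 4 it rose in both regions, by 1.29 ± 0.39 log2 units (SE, adjusted p = 0.0252) in the duodenum and 1.44 ± 0.39 log2 units (SE, adjusted p = 0.00831) in the ileum. Both rises rested on single libraries. Without ileum week 4 number 3, at 383 CPM, the ileal log2 change was 0.514 with an adjusted p of 0.374, and without duodenum week 4 number 2 the duodenal change was 0.651 with an adjusted p of 0.353. The duodenal rise was also lost without any 1 of the week 3 libraries. That ileal library, which also had the highest mitochondrial share at 35.2%, lowered the regional log2 difference at week 4 from 2.58 ± 0.41 (SE) to 1.65 when left out. Regional log2 differences in Nts were between 1.60 and 3.04 at the 7 called ages. At day 0 the difference was 1.23 ± 0.39 log2 units (SE, adjusted p = 0.0507) and was called without ileum day 0 number 2 (adjusted p = 0.0375).

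Gcg encodes proglucagon, from which intestinal cells cut the glucagon-like peptides that promote insulin release and epithelial growth. It lies at chr2:62474530-62483650 on the minus strand. In the duodenum, Gcg levels were 9.01, 7.10 and 7.84 CPM at day 0, 6.05, 7.68 and 7.16 at day 2, 11.1, 12.3 and 22.9 at day 4, 21.9 and 16.5 at day 6 and 17.5, 17.5 and 19.1 at day 8. They then were 11.7, 19.6 and 14.6 CPM at week 2, 5.66, 5.30 and 9.17 at week 3 and 20.9, 24.1 and 31.1 at week 4. Day 8 lay above day 0 without overlap, week 3 lay below week 2, and week 4 lay above week 3. In the ileum, Gcg levels were 25.5, 21.2 and 13.9 CPM at day 0, 28.8, 31.6 and 24.9 at day 2, 24.7, 61.7 and 42.2 at day 4, 30.9 and 28.1 at day 6 and 48.5, 43.4 and 38.1 at day 8. They then were 18.5, 28.4 and 37.3 CPM at week 2, 15.5, 16.6 and 17.6 at week 3 and 39.6, 37.9 and 36.3 at week 4. The same order of groups held there, with day 8 above day 0, week 3 below week 2 and week 4 above week 3, and no overlap in any of the 3 pairs. Gcg was called in both regions over each of these spans. It rose from day 0 to day 8 by 1.17 ± 0.27 log2 units (SE, adjusted p = 0.000586) in the duodenum and 1.10 ± 0.27 log2 units (SE, adjusted p = 0.0027) in the ileum. It fell from week 2 to week 3 by log2 changes of −1.19 ± 0.27 (SE, adjusted p = 0.00135) and −0.76 ± 0.27 (SE, adjusted p = 0.031). From week 3 to week 4 it rose by 1.92 ± 0.28 log2 units (SE, adjusted p = 3.59e-06) and 1.20 ± 0.27 log2 units (SE, adjusted p = 0.0014). The ileal fall at week 3 was called with all libraries but lost without ileum week 2 number 2 or 3 or ileum week 3 number 1 or 2 or 3 (adjusted p from 0.0548 to 0.226), and without week 2 number 3 its value was −0.506 log2 units. At week 4 Gcg was higher than at day 0 in the duodenum, by 1.66 ± 0.28 log2 units (SE, adjusted p = 5.11e-06), and in the ileum, by 0.91 ± 0.27 log2 units (SE, adjusted p = 0.00583), the latter lost without ileum day 0 number 3 (adjusted p = 0.0585). Ileal Gcg exceeded duodenal Gcg without overlap at 7 ages. The largest regional difference was 2.03 ± 0.28 log2 units (SE, adjusted p = 3.29e-06) at day 2, and at day 6 and week 4 the differences of 0.62 ± 0.33 log2 units (SE, adjusted p = 0.139) and 0.58 ± 0.27 log2 units (SE, adjusted p = 0.0945) were not called. At week 2, where samples overlapped, the difference of 0.88 ± 0.27 log2 units (SE, adjusted p = 0.0162) was lost without duodenum week 2 number 1 or 3 or ileum week 2 number 3 (adjusted p from 0.0611 to 0.133).

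Sct encodes secretin, which makes the pancreas and bile ducts release bicarbonate, and it lies at chr7:141278330-141279133 on the minus strand. In the duodenum, Sct levels were 17.0, 18.5 and 25.1 CPM at day 0, 17.8, 13.6 and 12.1 at day 2, 9.55, 11.0 and 22.8 at day 4, 6.30 and 5.58 at day 6 and 10.7, 7.49 and 9.82 at day 8. They were 11.7, 6.63 and 6.29 CPM at week 2, 7.65, 6.14 and 9.01 at week 3 and 12.1, 13.8 and 11.8 at week 4 later on. In the ileum, Sct levels were 27.7, 20.4 and 27.9 CPM at day 0, 13.7, 11.8 and 9.90 at day 2, 10.5, 22.3 and 15.0 at day 4, 9.64 and 10.5 at day 6 and 12.7, 9.90 and 14.5 at day 8. They were 7.55, 10.6 and 11.6 CPM at week 2, 13.5, 17.1 and 17.8 at week 3 and 15.2, 12.4 and 34.9 at week 4 afterwards. Day 0 was high in both regions, and every day 8 sample lay below every day 0 sample of its region. Sct fell from day 0 to day 8 by log2 changes of −1.12 ± 0.31 (SE, adjusted p = 0.00318) for duodenum and −1.03 ± 0.31 (SE, adjusted p = 0.0143) for ileum. The ileal fall was lost without ileum day 0 number 3 or ileum day 8 number 2 (adjusted p from 0.053 to 0.0751). The regions overlapped at 6 of 8 ages. At week 3 the ileum was higher by 1.08 ± 0.31 log2 units (SE, adjusted p = 0.0166), a call lost without duodenum week 3 number 2 or ileum week 3 number 3 (adjusted p from 0.0667 to 0.0887). The week 4 difference of 0.72 ± 0.31 log2 units (SE, adjusted p = 0.0737) was called without ileum week 4 number 1 or 2 (adjusted p from 0.0242 to 0.0396). Without number 1 its value was 0.883 log2 units with an adjusted p of 0.0396. Ileum week 4 number 3 had the highest Sct of all samples, at 34.9 CPM.

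**Figure D2:**
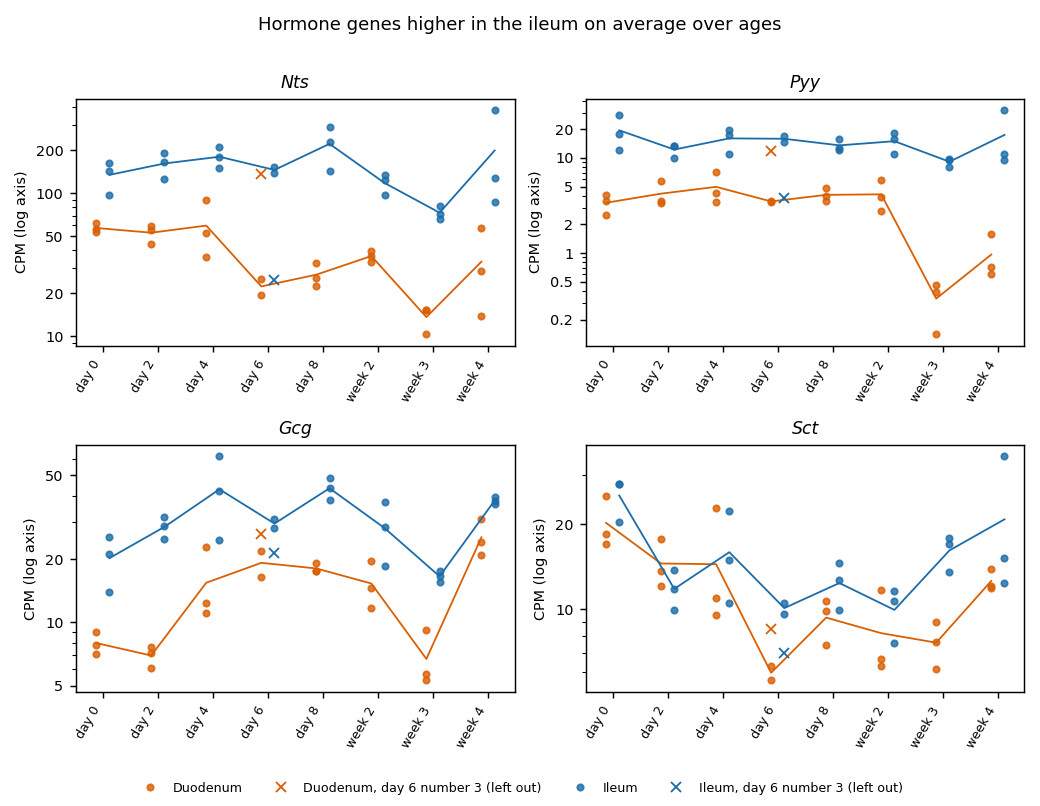
CPM on a log axis (vertical) against age (horizontal, ages evenly spaced and not to time scale) for Nts, Pyy, Gcg and Sct, with 1 point per sample, lines through group means, and crosses for the libraries labelled day 6 number 3. Duodenal Pyy at week 3 and week 4 lies at or below 1.58 CPM, while ileal Pyy lies at 8.12 CPM or above at every age.

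Cck encodes cholecystokinin, which contracts the gallbladder, stimulates pancreatic enzyme release and reduces appetite. It lies at chr9:121489824-121495694 on the minus strand. In the duodenum, Cck levels were 11.1, 17.9 and 25.9 CPM at day 0, 41.7, 30.9 and 28.2 at day 2, 30.8, 35.7 and 73.5 at day 4, 27.4 and 33.9 at day 6 and 37.3, 30.6 and 35.9 at day 8. Later values were 27.4, 12.0 and 18.0 CPM at week 2, 8.69, 9.52 and 9.81 at week 3 and 28.9, 24.9 and 29.5 at week 4. Week 3 was the lowest duodenal age and did not overlap any other. In the ileum, Cck levels were 4.69, 10.3 and 7.79 CPM at day 0, 8.65, 5.42 and 3.64 at day 2, 5.04, 9.96 and 6.47 at day 4, 7.12 and 5.57 at day 6 and 10.1, 6.21 and 7.98 at day 8. Later values were 4.57, 5.43 and 6.80 CPM at week 2, 2.44, 3.48 and 3.57 at week 3 and 6.64, 3.07 and 7.15 at week 4. At each age every duodenal sample exceeded every ileal sample. Duodenal Cck rose by 0.91 ± 0.34 log2 units (SE, adjusted p = 0.027) from day 0 to day 8, a call lost without duodenum day 0 number 1 or 2 or duodenum day 8 number 1 or 3 (adjusted p from 0.0598 to 0.166). It fell by a log2 change of −1.03 ± 0.34 (SE, adjusted p = 0.0283) from week 2 to week 3, a call lost without duodenum week 2 number 1 or duodenum week 3 number 1 or 2 or 3 (adjusted p from 0.0613 to 0.227). The rise to week 4 was 1.57 ± 0.34 log2 units (SE, adjusted p = 0.00145) and remained called without any 1 library. In the ileum no span was called for Cck, and the effect of age over all 8 ages had an adjusted p of 0.0598. That effect was called without any 1 of 8 libraries, among them all 3 of ileum week 4, with an adjusted p of 0.045 without number 1. The regional log2 difference was −1.28 ± 0.34 (SE, adjusted p = 0.0201) at day 0, lost without duodenum day 0 number 3 or ileum day 0 number 1 or 3 (adjusted p from 0.0642 to 0.208), and between −1.57 and −2.71 at the other ages. Duodenum day 4 number 3, at 73.5 CPM, was above the other 2 samples of its group at 30.8 and 35.7 CPM. That library also had the highest duodenal Sst, Ghrl, Nts and Pyy, together with an epithelial marker sum of 6145 CPM, against 4215 and 4849 CPM, and a smooth muscle sum of 49.7 CPM, against 6.38 and 6.35 CPM. The part of these marker levels in the result was not tested.

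Gip encodes the glucose-dependent insulinotropic peptide, which promotes insulin release after a meal, and it lies at chr11:96024545-96030831 on the plus strand. In the duodenum, Gip levels were 28.0, 42.7 and 58.6 CPM at day 0, 72.8, 62.2 and 52.3 at day 2, 66.4, 64.6 and 92.8 at day 4, 75.3 and 73.7 at day 6 and 84.5, 79.5 and 91.8 at day 8. At the weekly ages they were 109.5, 74.5 and 103 CPM at week 2, 35.8, 53.4 and 57.1 at week 3 and 87.8, 84.4 and 80.1 at week 4. In the ileum, Gip levels were 7.28, 19.2 and 25.2 CPM at day 0, 25.9, 18.1 and 15.8 at day 2, 12.6, 36.9 and 17.4 at day 4, 12.3 and 12.9 at day 6 and 24.0, 20.6 and 20.7 at day 8. At the weekly ages they were 22.7, 17.7 and 24.1 CPM at week 2, 16.7, 24.8 and 21.8 at week 3 and 64.4, 8.63 and 26.0 at week 4. Duodenal samples were above ileal samples at every age, and Gip had no called change over any span of ages in either region. Its age effect had an adjusted p of 0.142 for duodenum and 0.29 for ileum. The regional log2 difference ran from −1.21 ± 0.42 (SE) at week 3 to −2.56 ± 0.54 (SE) at day 6 and was called at every age but day 0. At day 0 it was −1.32 ± 0.42 log2 units (SE, adjusted p = 0.0554), and it was called without duodenum day 0 number 1 or ileum day 0 number 3 (adjusted p from 0.037 to 0.0393). At day 2 it was lost without duodenum day 2 number 1 or ileum day 2 number 2 or 3 (adjusted p from 0.0545 to 0.0689), at week 3 without duodenum week 3 number 2 or 3 or ileum week 3 number 1 or 2 or 3 (adjusted p from 0.0739 to 0.139), and at week 4 without ileum week 4 number 2 or 3 (adjusted p from 0.0722 to 0.0732). Ileum week 4 number 1, the library with the low ileal position markers, had 64.4 CPM of Gip against 8.63 and 26.0 CPM in the others. Without it the week 4 log2 difference moved from −1.36 ± 0.42 (SE) to −2.32. In the duodenum the change from day 0 to day 8 was 0.98 ± 0.41 log2 units (SE, adjusted p = 0.0554), and it was called without duodenum day 0 number 3 (adjusted p = 0.0334). In the ileum the age effect was called without ileum week 4 number 2 (adjusted p = 0.0119).

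Ghrl encodes ghrelin, a hormone best known from the stomach that stimulates appetite and growth hormone release. It lies at chr6:113716119-113719880 on the minus strand. In the duodenum, Ghrl levels were 14.1, 17.4 and 29.8 CPM at day 0, 28.7, 22.8 and 20.6 at day 2, 19.9, 22.8 and 59.3 at day 4, 15.9 and 20.2 at day 6 and 15.5, 15.7 and 16.9 at day 8. In the weeks that followed they were 18.8, 8.81 and 9.90 CPM at week 2, 6.34, 7.50 and 8.14 at week 3 and 15.4, 13.6 and 17.8 at week 4. In the ileum, Ghrl levels were 12.8, 12.7 and 19.6 CPM at day 0, 8.17, 6.48 and 4.55 at day 2, 3.15, 7.28 and 4.58 at day 4, 2.65 and 2.91 at day 6 and 4.23, 3.19 and 5.24 at day 8. In the weeks that followed they were 1.90, 2.12 and 2.16 CPM at week 2, 1.52, 3.09 and 2.03 at week 3 and 3.44, 2.73 and 4.81 at week 4. At day 0 the regions overlapped, and at each later age all duodenal samples were above all ileal ones. Ileal day 0 samples were above every later ileal sample. Ghrl fell in the ileum between day 0 and day 8 by a log2 change of −1.83 ± 0.35 (SE, adjusted p = 0.000181), while its duodenal change was −0.35 ± 0.33 (SE, adjusted p = 0.407). The difference between the changes was −1.48 ± 0.47 log2 units (SE, adjusted p = 0.0407), and it was lost without any 1 of 10 of the 12 libraries, with an adjusted p from 0.05 to 0.102. From day 0 to week 4 the ileal change was −2.06 ± 0.36 log2 units (SE, adjusted p = 1e-05) and the duodenal change −0.39 ± 0.33 log2 units (SE, adjusted p = 0.353). Their difference was −1.67 ± 0.48 log2 units (SE, adjusted p = 0.0318), lost without duodenum day 0 number 1 or 2 or duodenum week 4 number 3 or ileum day 0 number 3 or ileum week 4 number 2 (adjusted p from 0.0603 to 0.08). The regional log2 difference at day 0 was −0.45 ± 0.33 (SE, adjusted p = 0.505), and at the later ages it was between −1.73 and −2.77. In the duodenum Ghrl rose by 1.09 ± 0.33 log2 units (SE, adjusted p = 0.0241) from week 3 to week 4, a call lost without duodenum week 3 number 1 or 2 or duodenum week 4 number 3 (adjusted p from 0.0678 to 0.104). Gastric mucosa markers, which would mark stomach tissue in a sample, summed to 0.638 to 103.6 CPM in the duodenum, lowest at day 0, and to 0.178 to 19.5 CPM in the ileum. The ileal maximum was day 0 number 2, against 0.443 and 0.546 CPM in day 0 numbers 1 and 3, and that library also had the highest sum of duodenal position markers among the tested ileal libraries, at 165.3 CPM. Of 7 such markers tested, 3 (Gkn3, Pgc and Atp4a) were lower in the ileum averaged over ages and none was higher, beside 62.1% of all genes called. The part of stomach tissue in the Ghrl levels was not tested.

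Sst encodes somatostatin, which inhibits the release of other hormones and of gastric acid. It lies at chr16:23889573-23890958 on the minus strand and is also made in stomach, pancreatic islets and enteric neurons. In the duodenum, Sst levels were 13.5, 19.4 and 32.7 CPM at day 0, 28.2, 21.6 and 19.2 at day 2, 19.9, 18.7 and 52.2 at day 4, 19.0 and 26.0 at day 6 and 20.1, 18.0 and 17.3 at day 8. Over the last ages they were 32.9, 16.9 and 24.8 CPM at week 2, 12.9, 17.8 and 16.5 at week 3 and 23.6, 22.6 and 23.5 at week 4. In the ileum, Sst levels were 10.8, 15.1 and 17.8 CPM at day 0, 15.1, 12.7 and 10.8 at day 2, 10.9, 22.3 and 13.2 at day 4, 10.6 and 12.8 at day 6 and 13.6, 10.1 and 12.0 at day 8. Over the last ages they were 10.8, 13.2 and 11.2 CPM at week 2, 7.92, 11.7 and 13.6 at week 3 and 14.8, 6.27 and 21.5 at week 4. Sst had no called change over any span, and its age effect had an adjusted p of 0.318 for duodenum and 0.851 for ileum. The regional log2 difference was between −0.51 and −1.08 at every age. It was called at day 4, at −0.97 ± 0.35 log2 units (SE, adjusted p = 0.0352), and at week 2, at −1.08 ± 0.35 log2 units (SE, adjusted p = 0.0227). The day 4 call was lost without duodenum day 4 number 3 or ileum day 4 number 1 or 3 (adjusted p from 0.129 to 0.552), with a value of −0.322 log2 units when duodenum day 4 number 3, at 52.2 CPM, was left out. The week 2 call was lost without duodenum week 2 number 1 or 3 or ileum week 2 number 1 or 3 (adjusted p from 0.0527 to 0.122). At week 4 the difference of −0.72 ± 0.35 log2 units (SE, adjusted p = 0.114) was called without ileum week 4 number 3 (adjusted p = 0.0301).

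Tph1 encodes the enzyme that makes the serotonin precursor in enterochromaffin cells, the serotonin-secreting kind. It lies at chr7:46644641-46672537 on the minus strand. In the duodenum, Tph1 levels were 13.0, 19.2 and 29.4 CPM at day 0, 21.4, 18.3 and 13.9 at day 2, 16.6, 19.1 and 17.9 at day 4, 30.1 and 29.9 at day 6 and 22.6, 20.1 and 18.9 at day 8. The remaining values were 31.4, 19.7 and 24.9 CPM at week 2, 28.1, 34.5 and 31.8 at week 3 and 23.3, 25.8 and 25.4 at week 4. In the ileum, Tph1 levels were 3.92, 14.3 and 10.2 CPM at day 0, 11.1, 13.8 and 10.7 at day 2, 7.73, 8.12 and 8.62 at day 4, 8.38 and 8.54 at day 6 and 11.5, 7.26 and 5.69 at day 8. The remaining values were 11.8, 10.9 and 12.6 CPM at week 2, 24.4, 19.9 and 27.3 at week 3 and 19.8, 9.22 and 20.7 at week 4. Ileal week 3 samples were above all ileal samples of day 0 to week 2. Ileal Tph1 rose by 1.02 ± 0.29 log2 units (SE, adjusted p = 0.00735) from week 2 to week 3, a call kept without any 1 library, and the duodenal change was 0.31 ± 0.29 log2 units (SE, adjusted p = 0.503). The difference between these changes was 0.70 ± 0.41 log2 units (SE, adjusted p = 0.642). From day 0 to week 4 ileal Tph1 rose by 0.80 ± 0.30 log2 units (SE, adjusted p = 0.0284). Leaving out day 0 number 1, at 3.92 CPM, gave 0.423 log2 units with an adjusted p of 0.245, and without day 0 number 2 the value was 1.20 log2 units. The call was also lost without week 4 number 1, at 0.597 log2 units with an adjusted p of 0.146, and without number 3, at 0.578 log2 units with an adjusted p of 0.179. The regional difference was called at day 0 and from day 4 to week 2. At day 0 it was −1.12 ± 0.29 log2 units (SE, adjusted p = 0.0165) and was lost without duodenum day 0 number 3 or ileum day 0 number 1 (adjusted p from 0.163 to 0.249), with a value of −0.727 log2 units when duodenum day 0 number 3 was left out. Its largest size was −1.83 ± 0.37 log2 units (SE, adjusted p = 0.000205) at day 6. At week 3 and week 4 the differences of −0.40 ± 0.29 log2 units (SE, adjusted p = 0.38) and −0.59 ± 0.29 log2 units (SE, adjusted p = 0.12) were not called. In the duodenum the age effect had an adjusted p of 0.0679 and was called without duodenum day 0 number 3 or duodenum day 2 number 1 (adjusted p from 0.0166 to 0.0356). Tph1 is also made by mast cells, whose other markers summed to 10.8 to 80.7 CPM in the duodenum and 10.6 to 77.1 CPM in the ileum. Of 9 such markers tested, 5 were lower in the ileum averaged over ages and 1 was higher, beside 62.1% of all genes called. That count of 6 was 3 without any 1 of duodenum day 0 number 3, duodenum day 4 number 3 and ileum week 4 number 2 or 3. From week 2 to week 3 the lowest adjusted p among them was 0.11 in the duodenum and 0.13 in the ileum. Over day 0 to week 4, 4 (Mcpt1, Mcpt2, Kit and Ms4a2) rose and none fell in the ileum, beside 41.9% of all genes called. In the duodenum 2 rose and 4 fell, beside 40.5%. The part of mast cells in the Tph1 levels was not tested.

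Chga encodes chromogranin A, a protein of the secretory granules of most enteroendocrine cells, enterochromaffin cells above all. It lies at chr12:102554969-102565028 on the plus strand. In the duodenum, Chga levels were 42.2, 52.4 and 75.5 CPM at day 0, 77.7, 67.0 and 62.1 at day 2, 62.8, 69.2 and 84.9 at day 4, 90.8 and 100 at day 6 and 78.1, 80.1 and 68.2 at day 8. For the weekly samples they were 113, 80.9 and 81.1 CPM at week 2, 79.1, 68.9 and 80.7 at week 3 and 70.8, 89.6 and 67.8 at week 4. In the ileum, Chga levels were 37.0, 52.9 and 70.0 CPM at day 0, 58.0, 49.9 and 40.5 at day 2, 40.3, 67.6 and 48.7 at day 4, 45.3 and 51.0 at day 6 and 38.9, 46.4 and 49.4 at day 8. For the weekly samples they were 58.9, 66.4 and 70.5 CPM at week 2, 81.4, 89.6 and 81.3 at week 3 and 82.6, 43.4 and 63.7 at week 4. Duodenal samples were above ileal samples at 4 ages, ileal samples were above duodenal samples at week 3, and the regions overlapped at day 0, day 4 and week 4. The difference was called at day 6, at −0.99 ± 0.26 log2 units (SE, adjusted p = 0.00353), and at day 8, at −0.75 ± 0.21 log2 units (SE, adjusted p = 0.00578). At week 3 it was 0.14 ± 0.21 log2 units (SE, adjusted p = 0.703). At day 4 the difference of −0.47 ± 0.21 log2 units (SE, adjusted p = 0.101) was called without ileum day 4 number 2 (adjusted p = 0.0196). Its age effect was called in the ileum (adjusted p = 0.00636) and not in the duodenum (adjusted p = 0.0855). The duodenal age effect was called without duodenum day 0 number 3 (adjusted p = 0.0127). No single span was called for Chga in either region.

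**Figure D3:**
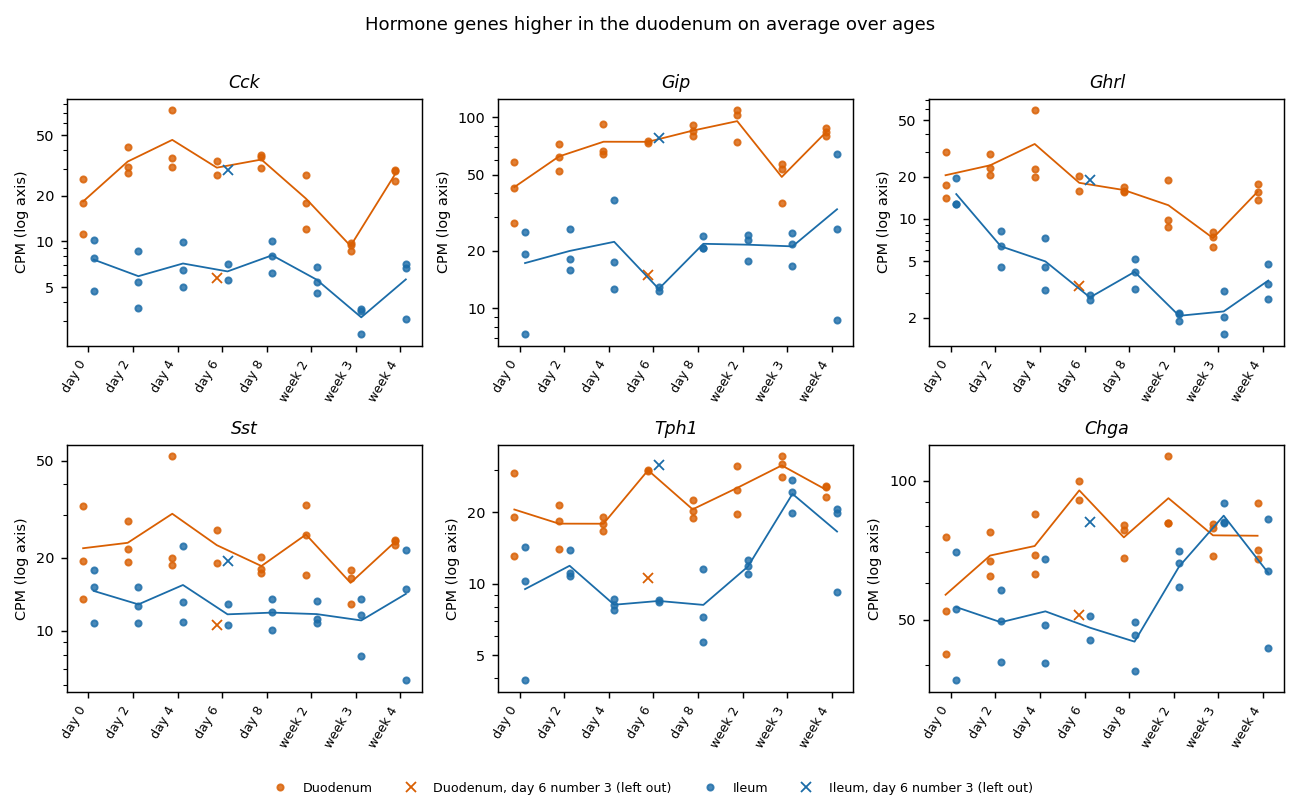
CPM on a log axis (vertical) against age (horizontal, ages evenly spaced and not to time scale) for Cck, Gip, Ghrl, Sst, Tph1 and Chga, with 1 point per sample, lines through group means, and crosses for the libraries labelled day 6 number 3. Ileal Ghrl falls away from duodenal Ghrl after day 0, where the regions overlap, and Cck and Gip stay apart at all 8 ages.

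Over age as a whole, 6 members were called in the duodenum, beside 67.4% of all genes, and 6 in the ileum, beside 58.7%. Gcg, Sct, Nts and Ghrl were called in both, Cck and Pyy in the duodenum, and Tph1 and Chga in the ileum. The Nts age effect in the ileum was lost without ileum day 8 number 1 or ileum week 3 number 1 or 2 (adjusted p from 0.0503 to 0.0769). Neither Gip nor Sst was called in either region.

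Between day 0 and day 8, 4 duodenal members were called, beside 41.2% of all genes, and 3 ileal ones, beside 19.3%. Gcg and Cck rose and Sct and Nts fell in the duodenum, whereas in the ileum Gcg rose and Sct and Ghrl fell. The medians over the 10 members were 0.132 and −0.24 on the log2 scale, and those over all genes were −0.0578 and 0.00872. The duodenal count was 2 without day 0 number 1 and 2 without day 8 number 1.

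Between day 8 and week 2 no member was called by edgeR in either region, beside 15.7% (duodenum) and 6.64% (ileum) of all genes. At an unadjusted p under 0.05 there were 1 and 4 members, and DESeq2 called 0 and 1. The shares above belong to the adjusted p of edgeR. Those of all genes at the unadjusted p or with DESeq2 are not given here, so these member counts have no background beside them.

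Between week 2 and week 3, the span that ends at weaning age, 4 members were called in the duodenum, beside 18.3% of all genes, and all 4 (Gcg, Cck, Pyy and Nts) fell. The median log2 change over the 10 members was −0.873 in the duodenum, and over all genes it was 0.026. In the ileum 2 were called, beside 26.8%. Gcg fell and Tph1 rose there, and the median log2 change was −0.059, against 0.0346 over all genes. The duodenal count was 2 without week 3 number 1, and the ileal count was 1 without any 1 of 5 libraries, all but number 1 of week 2.

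From week 3 to week 4, 5 members (Gcg, Cck, Pyy, Nts and Ghrl) rose in the duodenum, beside 12.7% of all genes called, and 2 (Gcg and Nts) rose in the ileum, beside 16.1%. The median log2 changes were 0.94 and 0.676, against −0.0372 and 0 over all genes. The duodenal count was 2 without number 1 or without number 2 of week 3 and 3 without number 2 of week 4. The ileal count was 4 without week 4 number 1, when Pyy was called as a rise, at 1.20 log2 units with an adjusted p of 0.0253, and Chga as a fall, at −0.674 log2 units with an adjusted p of 0.0419. With all libraries the ileal changes were 0.93 ± 0.37 log2 units (SE, adjusted p = 0.0837) for Pyy and −0.41 ± 0.21 log2 units (SE, adjusted p = 0.205) for Chga. The ileal count was 5 without number 2, when Cck, Gip and Pyy were called too, and 1 without number 3. Ileum week 4 number 2 had a smooth muscle marker sum of 214.8 CPM, against 38.0 and 104.4 CPM in numbers 1 and 3. It was the lowest of its group for every member but Gcg and Pyy. The part of its smooth muscle in these values was not tested. The fall to week 3 and the rise to week 4 share the week 3 samples.

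Over the whole course, from day 0 to week 4, 2 members were called in the duodenum, beside 40.5% of all genes, and 3 in the ileum, beside 41.9%. Gcg rose and Pyy fell in the duodenum, and in the ileum Gcg and Tph1 rose and Ghrl fell. The duodenal count was 5 without day 0 number 3, when Cck, Gip and Chga were called as well. In that library Cck, Gip, Sct, Sst, Ghrl, Tph1 and Chga were all above the other 2 day 0 samples, and Gcg, Pyy and Nts were not. Other values were ordered with them over duodenum day 0 numbers 1, 2 and 3. The duodenal position markers summed to 250.1, 416.9 and 494.7 CPM and the ileal position markers to 30.4, 22.1 and 6.43 CPM. Islet markers summed to 1.14, 4.28 and 8.00 CPM and mast cell markers to 10.8, 19.7 and 30.3 CPM, and the mitochondrial share was 17.3%, 23.0% and 29.8%. The part of these in the day 0 levels was not tested. The ileal count was 5 without week 4 number 2, when Gip and Nts were called. Pyy and Sct in the ileum were each called without week 4 number 3, at log2 changes of −0.955 for Pyy and −0.904 for Sct, against −0.17 ± 0.36 (SE, adjusted p = 0.737) and −0.29 ± 0.30 (SE, adjusted p = 0.467) with it. Duodenal Nts was called without week 4 number 2, at a log2 change of −1.38, against −0.78 ± 0.39 (SE, adjusted p = 0.105) with it.

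**Figure D4:**
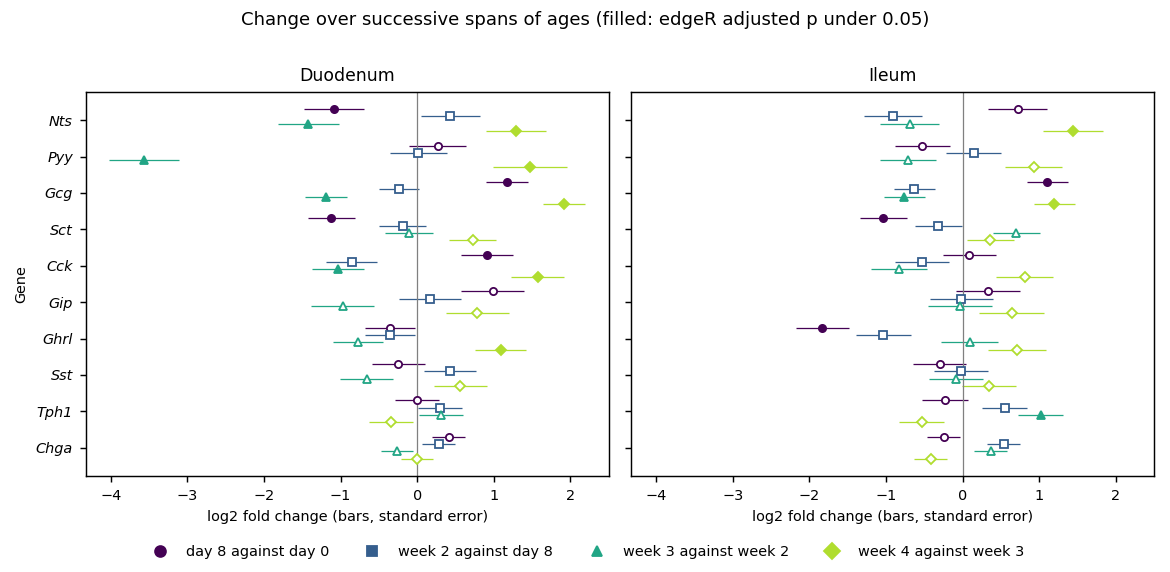
Log2 fold change (horizontal) of each member (vertical) over 4 successive spans of ages, in duodenum (left) and ileum (right), with bars for the standard error and filled symbols for an edgeR adjusted p under 0.05. In the duodenum the 4 filled symbols of week 3 against week 2 lie below 0 and the 5 of week 4 against week 3 lie above 0.

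The course over ages differed between the regions for 2 members, Pyy (adjusted p = 0.000191) and Ghrl (adjusted p = 0.00762), by the interaction of region and age, beside 22.4% of all genes. Gcg had an adjusted p of 0.0564 and Nts of 0.0767, and neither was called. Gcg was called without any 1 of 9 libraries and Nts without any 1 of 5, and DESeq2 called both, with an adjusted p of 0.0261 for Gcg and 0.0155 for Nts. With a mean count of at least 10 the adjusted p of Gcg was 0.0456. Of the changes compared directly between regions, that from day 0 to day 8 differed for Nts and Ghrl, beside 10.1% of all genes. That from week 2 to week 3 differed for Pyy, beside 1.38%, and that from day 0 to week 4 differed for Ghrl, beside 5.99%. For Gcg, the change from week 2 to week 3 differed between the regions by 0.42 ± 0.38 log2 units (SE, adjusted p = 0.863) and the change from day 0 to week 4 by −0.75 ± 0.38 log2 units (SE, adjusted p = 0.216). Pyy from day 0 to week 4 differed by 1.64 ± 0.55 log2 units (SE, adjusted p = 0.0648), which was called without duodenum week 4 number 2 or ileum day 0 number 1 or ileum week 4 number 1 or 2 (adjusted p from 0.0205 to 0.0452). Without ileum week 4 number 1 the value was 1.91 log2 units with an adjusted p of 0.0216.

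Levels across the 16 groups spanned the widest range for Pyy, whose highest group mean, 19.5 ± 8.28 CPM (SD, n = 3), was 58.8 times its lowest, 0.332 ± 0.17 CPM (SD, n = 3). The ratio was 16.5 for Ghrl, 16.3 for Nts, 14.8 for Cck, 7.58 for Gip, 6.46 for Gcg, 4.26 for Sct, 3.86 for Tph1, 2.74 for Sst and 2.12 for Chga. When the 16 groups were ordered by mean, most of the 15 neighbouring pairs overlapped. For Pyy 4 pairs did not overlap, for Nts 3, for Gcg and Cck 2 each, for Gip, Ghrl and Chga 1 each, and for Sct, Sst and Tph1 none. The same count over all genes was not made. The order for Pyy ran from duodenum week 3 and week 4, through the other duodenal groups, to ileum week 3 and then the remaining ileal groups, so that all 8 ileal means were above all 8 duodenal means. The same split of means held for Nts, and the reverse split held for Cck, Gip and Sst. The Nts means ranged from 13.7 ± 2.88 CPM (SD, n = 3) in duodenum week 3 to 222 ± 74.4 CPM (SD, n = 3) in ileum day 8. The Cck means ranged from 3.16 ± 0.627 CPM (SD, n = 3) in ileum week 3 to 46.7 ± 23.4 CPM (SD, n = 3) in duodenum day 4, and those of Gip from 12.6 ± 0.46 CPM (SD, n = 2) in ileum day 6 to 95.6 ± 18.6 CPM (SD, n = 3) in duodenum week 2. For Ghrl the ileal day 0 mean of 15.0 ± 3.93 CPM (SD, n = 3) stood above the duodenal means of week 2 and week 3 and above all other ileal means. Gcg means ranged from 6.71 ± 2.14 CPM (SD, n = 3) to 43.4 ± 5.21 CPM (SD, n = 3).

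The genes most like each member were taken as the 3 with the highest Pearson correlation of log2 CPM over the 46 samples, among 12355 genes. These samples share libraries and the split into 2 regions, so the values describe both region and age. For Pyy they were Fgf15 (r = 0.882), Khdrbs3 (0.881) and Nts (0.878), and for Nts they were Pyy, Khdrbs3 (0.871) and Mgat4c (0.863). For Cck they were Decr1 (0.904), Ghrl (0.881) and Gstz1 (0.88), for Gip Trpa1 (0.917), Decr1 (0.917) and Chgb (0.916), and for Ghrl Auh (0.9), Cck and Rp9 (0.876). For Sst they were Cck (0.844), Decr1 (0.826) and Gip (0.809). Gcg was most like Zfhx2 (0.847), Ampd3 (0.783) and Syk (0.755), and Sct was most like Sh3bgrl3 (0.779), Pold4 (0.748) and Camsap3 (0.741). Tph1 was most like Cda (0.838), Pex11a (0.833) and Tmem230 (0.824), and Chga was most like Tph1 (0.795), Chgb (0.788) and Hpcal1 (0.785). Within a region, over its 23 samples, the correlation of Cck with Ghrl was 0.87 in the duodenum and 0.547 in the ileum. That of Pyy with Nts was 0.698 and 0.667, and that of Tph1 with Chga was 0.672 and 0.73. Gip with Ghrl, at 0.691 over all samples, had 0.283 and 0.0313 within the regions.

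Of the transcription factors that form enteroendocrine cells, 15 of 19 were called between the regions, beside 62.1% of all genes. Averaged over ages, 13 of the 19 factors were lower in the ileum, among them Neurog3, which starts the lineage, Neurod1, Pax4, Insm1, Rfx6 and Foxa2. Etv1 and Foxa1 were higher, and the other 4 were not called. The median over the list was −0.475 on the log2 scale, against 0.0757 over all genes. Values for those with the highest levels were −0.47 ± 0.09 log2 units (SE, adjusted p = 1.56e-05) for Sox4 and 0.40 ± 0.06 log2 units (SE, adjusted p = 3.37e-07) for Foxa1. From day 0 to week 4, 8 of the 19 rose in the duodenum (Neurog3, Nkx2-2, Isl1, Insm1, Lmx1a, Mnx1, Foxa2 and Sox4) and Etv1 fell. In the ileum 4 rose (Pax6, Isl1, Hhex and Foxa2) and none fell. Over that span 40.5% and 41.9% of all genes were called. Foxa2, a factor of gut epithelium and of several hormone cells, rose by 1.38 ± 0.27 log2 units (SE, adjusted p = 7.7e-05) in the duodenum and 0.98 ± 0.28 log2 units (SE, adjusted p = 0.00434) in the ileum. Hhex, a factor of somatostatin cells, rose by 1.72 ± 0.34 log2 units (SE, adjusted p = 7.16e-05) in the ileum and had a change of −0.37 ± 0.33 log2 units (SE, adjusted p = 0.389) in the duodenum. Of the 9 duodenal factors called, 4, 3 and 5 were called without day 0 number 1, day 0 number 2 and week 4 number 1. The ileal count of 4 became 8 without week 4 number 2. Between week 2 and week 3, when 4 members fell in the duodenum, the lowest adjusted p among the 19 factors was 0.0602 in the duodenum and 0.0755 in the ileum, and their median log2 changes were −0.242 and 0.15. The effect of age over all 8 ages was called for 17 in the duodenum and 14 in the ileum, beside 67.4% and 58.7% of all genes.

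Granins and processing enzymes, which package and cut the prohormones, numbered 12, of which 7 were called between the regions, beside 62.1% of all genes. Of these 7, 5 were lower in the ileum (Chgb, Scg5, Scgn, Pcsk1 and Mboat4, the last the enzyme that acylates ghrelin) and 2 were higher (Vgf and Pam). Chgb, a granule protein, had a mean of 194.3 CPM and a regional difference of −0.92 ± 0.08 log2 units (SE, adjusted p = 2.16e-12). Pam, which amidates the end of many peptide hormones, had a regional difference of 0.74 ± 0.07 log2 units (SE, adjusted p = 1.21e-10). It fell from day 0 to week 4 by log2 changes of −1.82 ± 0.21 (SE, adjusted p = 5.52e-09) in the duodenum and −1.39 ± 0.21 (SE, adjusted p = 9.67e-07) in the ileum. Scgn, a calcium sensor of secretory cells, rose in the duodenum by 1.00 ± 0.30 log2 units (SE, adjusted p = 0.00611), and its ileal change was 0.41 ± 0.29 log2 units (SE, adjusted p = 0.274). Over that span 3 rose and 1 fell in the duodenum, and 2 rose and 1 fell in the ileum, beside 40.5% and 41.9% of all genes called. Chgb was among the duodenal rises at 0.59 ± 0.22 log2 units (SE, adjusted p = 0.0284), but the call was lost without day 0 number 1 or 2, with a highest adjusted p of 0.185 over all alternatives.

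**Figure D5:**
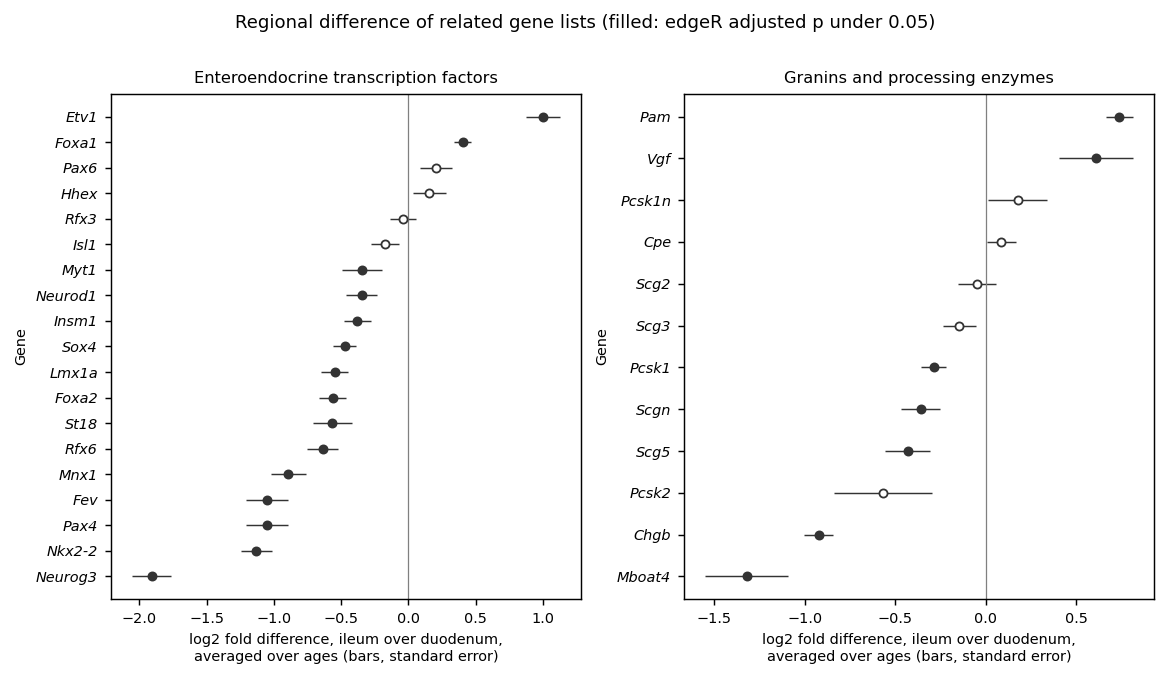
Log2 fold difference of ileum over duodenum averaged over ages (horizontal) for 19 enteroendocrine transcription factors (left) and 12 granins and processing enzymes (right), 1 row per gene, with bars for the standard error and filled points for an edgeR adjusted p under 0.05. Of the factors, 13 filled points lie below 0 and 2, those of Etv1 and Foxa1, lie above.

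All 6 genes of serotonin handling changed between day 0 and week 4 in both regions, beside 40.5% (duodenum) and 41.9% (ileum) of all genes called. Ddc, which makes serotonin from the product of Tph1, rose by 3.16 ± 0.25 log2 units (SE, adjusted p = 5.26e-13) in the duodenum and 1.69 ± 0.24 log2 units (SE, adjusted p = 2.91e-07) in the ileum. Maoa, which breaks serotonin down and which absorptive cells also express, rose by 6.60 ± 0.29 log2 units (SE, adjusted p = 7.57e-20) and 4.42 ± 0.26 log2 units (SE, adjusted p = 1.3e-16). Maob, a related oxidase, fell by log2 changes of −1.53 ± 0.29 (SE, adjusted p = 4.11e-05) and −2.19 ± 0.30 (SE, adjusted p = 1.1e-07). Slc18a2, a vesicle transporter, and Slc6a4, the serotonin uptake transporter, rose in both, and Slc18a1, another vesicle transporter, fell in both. Averaged over ages Slc18a1, Maoa and Maob were higher and Ddc and Slc6a4 lower in the ileum. Epithelial markers moved over the same span: 8 of 10 rose from day 0 to week 4 in the duodenum, and 7 rose and Krt18 fell in the ileum. Their sum over all ages ran from 3844 to 12120 CPM in duodenum and 3380 to 12340 CPM in ileum. The part of the epithelial share in these rises was not tested.

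Other gut hormones were mostly low. Tac1, which encodes substance P and comes from enteric neurons and enterochromaffin cells, rose from day 0 to week 4 by 1.48 ± 0.25 log2 units (SE, adjusted p = 6.54e-06) in the duodenum and 2.23 ± 0.26 log2 units (SE, adjusted p = 3.33e-09) in the ileum. Insl5, a hormone of colonic cells, fell in the duodenum (adjusted p = 1.9e-08) from 2.14 ± 1.06 CPM (SD, n = 3) at day 0 to a week 4 level below the 0.0782 to 0.106 CPM that 3 counts would give. In the ileum it was at 0.382 ± 0.211 CPM (SD, n = 3) at day 0 and 0.0724 ± 0.125 CPM (SD, n = 3) at week 4, a fall (adjusted p = 0.0454) lost without day 0 number 2 or week 4 number 1 or 3. Iapp, the islet amyloid peptide that gut cells also make, had changes of −0.999 ± 0.54 log2 units (SE, adjusted p = 0.142) and 0.41 ± 0.57 log2 units (SE, adjusted p = 0.592). Ppy, which encodes pancreatic polypeptide, was at 0.255 ± 0.366 CPM (SD, n = 3) at day 0 in the duodenum and at 0 in all 3 samples of week 4. Its call there (adjusted p = 0.0121) was lost without day 0 number 3. Of 4 islet markers tested, Ins1 and Ins2 also fell in the duodenum, beside 40.5% of all genes called. That count of 2 was 1 without the same library. The part of islet tissue in the Ppy change was not tested. Of 8 other gut hormones tested, 4 (Insl5, Tac1, Ucn3 and Iapp) were lower in the ileum averaged over ages and 2 (Gal and Vip, which enteric neurons make) were higher, beside 62.1% of all genes called. The Insl5 difference was lost without duodenum week 3 number 1 or week 4 number 2, and that of Iapp without any 1 of 12 libraries. The ileal count of 3 called from day 0 to week 4 was 1 without day 0 number 2.

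Among sensors of nutrients and bile acids, 5 of 13 tested rose and 3 fell from day 0 to week 4 in the duodenum, and 6 rose and 3 fell in the ileum, beside 40.5% and 41.9% of all genes called. Slc5a1, the glucose transporter through which glucose also triggers hormone release, rose by 1.92 ± 0.28 log2 units (SE, adjusted p = 4.8e-07) and 1.98 ± 0.28 log2 units (SE, adjusted p = 2.6e-07). Ffar2, a receptor for short-chain fatty acids, fell by log2 changes of −1.05 ± 0.22 (SE, adjusted p = 0.000151) and −1.37 ± 0.22 (SE, adjusted p = 2.54e-06). Piezo2, a mechanical channel of enterochromaffin cells and sensory nerves, fell by log2 changes of −4.42 ± 0.51 (SE, adjusted p = 4.8e-09) and −2.25 ± 0.44 (SE, adjusted p = 6.48e-05). Over that span the enteric neuron marker sum was 33.7 to 44.1 CPM at day 0 and 6.13 to 12.9 CPM at week 4 for duodenum, and 50.5 to 76.1 CPM and 14.7 to 16.5 CPM for ileum. Of the 9 neuron markers 4 fell and 1 rose in the duodenum, and 2 fell and 1 rose in the ileum, and Ret fell by log2 changes of −2.50 ± 0.28 (SE, adjusted p = 1.5e-09) and −2.56 ± 0.28 (SE, adjusted p = 7.79e-10). Their part in the Piezo2 change was not tested. Gnat3, the taste G protein that tuft cells also use, rose in the duodenum (adjusted p = 0.0211) and the ileum (adjusted p = 5.77e-05), from day 0 means below the level of 3 counts to 0.273 ± 0.246 CPM (SD, n = 3) and 1.78 ± 1.36 CPM (SD, n = 3) at week 4. Its duodenal call was lost without day 0 number 1 or 2 or week 4 number 2. Averaged over ages, 5 were higher in the ileum (Ffar1, Ffar2, Ffar4, Gpr119 and Piezo2) and 3 lower (Lpar5, Trpa1 and Slc5a1), beside 62.1% of all genes.

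Of the receptors for the members' hormones and the peptidase that degrades several of them, 16 were tested. From day 0 to week 4 the same 5 (Glp2r, Gipr, Gcgr, Sstr3 and Ghsr) fell in both regions, while Htr4 and Dpp4 rose in both and Sstr2 in the ileum, beside 40.5% and 41.9% of all genes called. Glp2r, the receptor of a glucagon-like peptide that promotes mucosal growth, went from 12.4 ± 4.43 CPM (SD, n = 3) to 0.303 ± 0.132 CPM (SD, n = 3) in the duodenum and from 12.9 ± 7.92 CPM (SD, n = 3) to 0.334 ± 0.101 CPM (SD, n = 3) in the ileum. The log2 changes were −5.34 ± 0.47 (SE, adjusted p = 5.34e-12) and −5.21 ± 0.48 (SE, adjusted p = 1.67e-11). Dpp4, the peptidase that inactivates glucagon-like peptides and Gip, rose by 1.68 ± 0.23 log2 units (SE, adjusted p = 1.69e-07) and 2.11 ± 0.23 log2 units (SE, adjusted p = 1.53e-09). Htr4, a serotonin receptor, rose by 1.84 ± 0.46 log2 units (SE, adjusted p = 0.00138) and 3.13 ± 0.52 log2 units (SE, adjusted p = 4.22e-06). Ghsr, the ghrelin receptor, was at 0.298 ± 0.146 CPM (SD, n = 3) at day 0 in duodenum and 0.174 ± 0.178 CPM (SD, n = 3) in ileum, and at 0 in all 6 week 4 samples, where 3 counts would be 0.0782 to 0.2 CPM. DESeq2 did not call Ghsr in either region, and the ileal call (adjusted p = 0.0282) was also lost without any 1 of the ileum week 4 libraries, with a highest adjusted p of 0.358 over all alternatives. The ileal count of 8 became 5 without day 0 number 3. Averaged over ages, 7 were higher and 4 lower in the ileum, beside 62.1% of all genes called.

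Markers of other tissues that could add to these levels moved with region too, in a comparison where 62.1% of all genes were called. Of 9 enteric neuron markers, 6 were higher in the ileum averaged over ages and none lower, and their sums, carried mostly by Ret (mean 41.8 CPM), ran from 6.13 to 57.3 CPM in the duodenum and 14.7 to 121.3 CPM in the ileum. All 7 smooth muscle markers and 5 of 6 lymphatic markers were also higher there. Smooth muscle sums ran from 6.26 to 49.7 CPM and 15.5 to 214.8 CPM, and lymphatic sums from 7.40 to 33.8 CPM and 16.8 to 48.6 CPM. Of 10 epithelial markers, 3 were lower and 1 higher in the ileum, and this count of 4 was 7 without ileum week 4 number 2. Pancreatic acinar markers were lower there in 9 of 11, with sums of 4.49 to 613.7 CPM in the duodenum and 1.89 to 27.5 CPM in the ileum. The duodenal maximum was day 2 number 1, against 38.0 and 21.9 CPM in numbers 2 and 3. In that library Cck, Gip, Sct, Pyy, Sst, Ghrl, Tph1 and Chga were above the other day 2 samples, and Gcg and Nts were not. Islet marker sums, which include Iapp and bear on Gcg, Sst and Ghrl, ran from 0.95 to 9.37 CPM and 0.52 to 3.34 CPM. Their duodenal maximum was again day 2 number 1. Of the 4 islet markers tested, Ucn3 and Iapp, counted above among the other gut hormones too, were lower in the ileum. The defining insulin genes Ins1 and Ins2 were at 0 in 23 and 25 samples. The part of these tissues in the regional differences was not tested.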

How the data were processed

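Per the labels, total RNA of whole intestine was sequenced on a NovaSeq instrument. The deposited values are estimated counts per gene, which the authors made by summarising transcript estimates, per the file's name. They were whole numbers, for 54532 identifiers of which the deposited tables pair 51106 with a symbol. The submitters' processing notes name STAR 2.6.1d, Salmon 0.14.2, DESeq2 1.30.1 and build mm10, without roles. Annotation release and strand use are not given in the sources used here. Estimated counts share reads between alike transcripts by a model.

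Counts of 46 samples were TMM-scaled, filtered with filterByExpr (21986 genes kept) and fitted with edgeR 4.0.16 (quasi-likelihood, robust, R 4.3.3), with 1 mean per group. The 25 comparisons were adjusted by the Benjamini-Hochberg method over all genes tested, and called under 0.05. Standard errors are the log2 fold change over the square root of F. Log2 CPM used a prior count of 2. The procedure was tested on simulated data in which 200 genes were changed in ileum week 4 only. For ileum week 4 against day 0 it recovered 69% of 2-fold and 87% of 4-fold changes, with 7 false calls among 163. For the difference between the changes to week 4 it recovered 32% and 66%, and for the interaction 19% and 66%. In that simulation many changes of that size were thus not called. The 200 changed genes were drawn from genes above a count limit, out of 21986 simulated. In the data 41.9% of all genes were called for ileum week 4 against day 0. The adjustment depends on the share of genes that change, so these figures do not give the recovery in the data. The members and lists were chosen with earlier results of these data known. Named by rule were all members, the 3 genes most correlated with each (mean log2 CPM of at least 1), and of each list the 2 highest genes and, for lists of the enteroendocrine lineage, the 2 largest called changes from day 0 to week 4. Other list genes were named after their values were seen. A few genes of the lists are not reported here, and the counts, sums and medians leave them out. Alternatives were RLE size factors, no low-count filter, a mean count of at least 10, DESeq2 1.42.0, all 48 samples, no day 4 samples, only the compared groups, a replicate block, a sex index (log2 Xist less log2 Ddx3y) and each library left out in turn. Gene positions are from GENCODE on GRCm38, and promoters from RefSeq on GRCm38.p6.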

Additional observations from a re-analysis of the deposited data

Results flagged for a closer look

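In 4 results a member's change with age differed between the regions, each by a test of the difference itself in the edgeR fit. For Nts the change from day 0 to day 8, ileum minus duodenum, was 1.80 ± 0.55 log2 units (SE, adjusted p = 0.0329). All 3 duodenal day 8 samples lay below all day 0 samples, and the ileal samples of the same ages overlapped. For Ghrl the same difference was −1.48 ± 0.47 log2 units (SE, adjusted p = 0.0407), and from day 0 to week 4 it was −1.67 ± 0.48 log2 units (SE, adjusted p = 0.0318). Ileal Ghrl fell without overlap in both spans, and duodenal samples overlapped in both. The Nts call and both Ghrl calls were lost without certain single libraries, as given for those genes. None of these calls remained without the low-count filter or with all 48 samples. For Pyy the difference in the change from week 2 to week 3 was 2.84 ± 0.58 log2 units (SE, adjusted p = 0.00546). It rests on 3 duodenal samples with 22, 4 and 18 counts. The Pyy call stayed without any 1 library and was lost with all 48 samples. These are 4 values of 3 spans and 10 members, beside 10.1%, 1.38% and 5.99% of all genes called in those spans.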

How the results depend on the processing

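Over the members, 5020 values were recomputed under the alternatives. Of these, 4742 stayed on the same side of the threshold, 154 lost a call and 124 gained one. None changed sign where either value was called. Sign was not compared where neither value was called, nor in the tests over all ages, which have none. Every member's regional difference averaged over ages kept its sign and its call. Of 106 called member results, 81 kept the call without any 1 library and 25 did not. Gkn3, a gastric gene, changed by −3.71 in the ileum from day 0 to week 4 and by −4.95 to 4.27 with 1 library left out, the last without ileum day 0 replicate 2. In that library the gastric mucosa markers, Gkn3 among them, summed to 19.5 CPM, against 0.443 and 0.546 CPM in replicates 1 and 3. The cause was not tested. Depth limits duodenal Pyy at week 3 and list genes near 0.

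Counts of members called moved as follows. Without the low-count filter there were 2 in duodenum day 8 against day 0, 2 in duodenum week 4 against week 3, and 0 for the regional difference of the changes to day 8 and to week 4. With all 48 samples there were 2 in duodenum day 8 against day 0, 2 in duodenum week 3 against week 2, 1 in ileum week 3 against week 2, 2 in duodenum week 4 against week 3, 1 in ileum week 4 against week 3, 2 between regions at day 0, 0 at day 6 and 4 at week 3, 1 for the interaction, and 0 for each of the 3 differences between changes. Those 48 include the libraries that resemble the other region. Without day 4 samples there were 1 in duodenum and 2 in ileum week 2 against day 8, 4 for the interaction and 2 for the difference in change to week 4. With only the compared groups there were 2 in duodenum and 3 in ileum week 2 against day 8, 7 in ileum week 3 against week 2, 1 in ileum week 4 against week 3, 4 in duodenum week 4 against day 0, 4 between regions at day 4 and 0 for the difference in change to week 4. DESeq2 gave 1 in ileum week 2 against day 8, 4 for the interaction and 2 for the difference in change to week 4. The sex index left 3 in duodenum week 4 against week 3, and RLE left 1 for the difference in change to day 8. The cause was not tested.

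Leaving out 1 library gave 2 to 6 members in duodenum day 8 against day 0, 2 to 4 in duodenum and 1 to 2 in ileum week 3 against week 2, 2 to 5 in duodenum and 1 to 5 in ileum week 4 against week 3, and 2 to 5 in either region for week 4 against day 0. Over the same fits, all genes called ran from 7804 to 8348 in duodenum day 8 against day 0. For week 3 against week 2 they ran from 3052 to 3426 in the duodenum and 4803 to 5428 in the ileum. For week 4 against week 3 the ranges were 1706 to 2738 and 2331 to 4368. For week 4 against day 0 they were 7524 to 8515 and 7680 to 8891. Between regions at day 0, leaving out 1 library gave 2 to 5 members, and for the interaction 2 to 4. For the difference in change to day 8 it gave 0 to 2, and for that to week 4 0 to 3. All genes called ran from 484 to 1280 between regions at day 0. For the differences in change they ran from 963 to 2273 (day 8) and 607 to 2288 (week 4).

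Counts of all genes called moved more. Where no gene count is given for an alternative, its member count has no background beside it. With all 48 samples, 9054 became 8181 in duodenum day 8 against day 0. For week 3 against week 2, 4014 became 3220 in the duodenum and 5891 became 4980 in the ileum. For ileum week 4 against week 3, 3534 became 2622. Between regions, with all 48 samples, 1342 became 578 at day 0, 1762 became 1024 at day 2, 5855 became 3851 at day 4, 7762 became 0 at day 6, 4922 became 2561 at week 2 and 3117 became 1376 at week 3. The interaction had 4930, with 947 for all 48 samples and 9512 without day 4. With only the compared groups there were 354 between regions at day 4, 5408 at day 2, 2491 at week 4 (6234 in the fit of all groups), and 1527 in ileum week 4 against week 3 (3534). Week 2 against day 8 had 3448 in the duodenum (1528 to 6278) and 1460 in the ileum (417 to 3472), duodenum week 4 against week 3 had 2794 (1866 to 4568), and the differences between changes had 2216 (348 to 4499), 303 (113 to 672) and 1317 (377 to 3146).

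The 23 pairs of duodenum and ileum samples with the same age and number deviated from their group means with correlations of −0.363 to 0.672 (mean 0.155, 16 over 0.1). For other numbers the mean was −0.0791. Deviations sum to 0 within a group, so that value largely follows from the mean for the same number. At day 6, with 2 samples a group, both pairs have 0.187 by construction. Of the duodenum samples, 17 were closest to their own number. Most pairs but not all thus deviated together, and the numbers were not taken to pair the samples. A replicate block kept 245 of 250 member results and added 5 calls: Gip between regions at day 0 (adjusted p = 0.0127), Sst (0.0433) and Tph1 (0.041) at week 4, and the interaction for Gcg (0.0277) and Tph1 (0.0494), which then had 4 members.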
